A study of Mus musculus with 12 samples.

Results

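The cytosolic ribosomal proteins are the protein parts of the large and small subunits of the ribosome that translates nuclear-encoded mRNA. Their genes were chosen by symbol: Rpl or Rps followed by a number and at most a short suffix, together with Rpsa, Rplp0, Rplp1 and Rplp2, and leaving out symbols with -ps, which mark pseudogenes. The rule found 88 of 52535 gene symbols, 52 of the large and 36 of the small subunit. Of these, 11 are copies of another member, such as Rps27l or Rpl22l1, 86 had at least 1 count, and Rpl10l and Rps4l were at 0 in all 6 libraries. The 276 matching -ps symbols were left out, and the mitochondrial ribosomal proteins are a separate set of 78 genes.

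The RNA came from 3 mouse T-cell acute lymphoblastic leukaemia (T-ALL) lines, 240, 242 and 352, each grown from a thymic tumour of another Lck-Dlx5;Lck-MyrAkt2 mouse. In these mice the Lck promoter drives the homeobox gene Dlx5 and a myristoylated, constitutively active Akt2 in immature T cells, so that both the control and the treated cells carry both transgenes. Each line was sequenced as a placebo control and after exposure to PKF118-310, a compound that inhibits the β-catenin/Tcf complex, the transcriptional end of Wnt signalling. The labels give neither a dose nor a time for these cultures nor the age of the mice. By the sample titles, each line gave 1 control and 1 treated library, so that n = 3 per group. Defining genes of T cells were present throughout: 10 thymocyte and T-ALL markers such as Cd3e summed to 2775 to 6229 CPM (counts scaled to a common library total).

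Ribosomal protein genes are among the most highly transcribed genes of a dividing cell, and their mRNAs are made in near balance because nearly all of these proteins occur as a single molecule per ribosome. Most of these mRNAs begin with a terminal oligopyrimidine (TOP) tract, through which mTOR, a kinase downstream of Akt, controls their translation rather than their amount. When ribosome assembly fails, free Rpl5 and Rpl11 can bind Mdm2 and stabilise p53. RPL5, RPL10, RPL11 and RPL22 are mutated in some human T-ALL.

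The start-site sequences of a few members are shown because the TOP tract is a known feature of the family. RefSeq starts (GRCm38.p6) were matched for 63 members, and 25, Rpl23a and Rpl21 among them, were not matched. Each run holds 30 bases, 15 before and 15 from the annotated start on, and capitals mark the longest run of at least 5 pyrimidines that begins with C. For a gene with several annotated starts, a start with such a marked run was chosen where one existed. The starts shown are therefore not typical ones. The marked run of Rps27l lies wholly before the annotated start, so it is not a TOP tract of that transcript. A shorter run of the same kind just after that start is not marked. The runs of Rpl35, Rps6, Rplp2 and Rps27 span the start, whereas that of Rpl13a begins after it.
Rpl35 (chr2:39005117-39005146, minus strand): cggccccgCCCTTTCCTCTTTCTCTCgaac
Rps6 (chr4:86857353-86857382, minus strand): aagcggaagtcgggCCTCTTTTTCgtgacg
Rplp2 (chr7:141447636-141447665, plus strand): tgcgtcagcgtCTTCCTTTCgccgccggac
Rps27 (chr3:90213634-90213663, minus strand): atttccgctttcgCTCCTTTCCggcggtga
Rps27l (chr9:66946071-66946100, plus strand): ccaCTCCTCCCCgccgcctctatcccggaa
Rpl13a (chr7:45128731-45128760, minus strand): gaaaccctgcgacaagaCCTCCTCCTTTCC

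Such a run lay anywhere in this window, before or after the start, in 42 of the 63 members (66.7%) and in 40.3% of 27025 genes with a RefSeq start. In the wider stretch from 250 bases before to 50 bases after the start, searched on both strands, CCGGAA, the core of ETS factor sites, was found in 55.6% of the members and in 16.7% of all genes. CACGTG, the E-box bound by Myc, was found in 9.52% of the members and 8.09% of all genes, and CTTTGA, the core of Tcf/Lef sites, in 6.35% of the members and 18.2% of all genes. These shares describe letters in a window and not bound sites, and a gene was counted if any of its annotated starts held the motif.

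Member genes took between 4.71% and 7.60% of all gene counts. The share was 7.60% in control and 7.16% in treated cells of line 240, 6.39% and 6.28% in line 352, and 7.19% and 4.71% in line 242. It was thus lower after PKF118-310 in each line, with log2 ratios of -0.08, -0.03 and -0.61 in lines 240, 352 and 242 (mean -0.24 ± 0.32 SD, n = 3), and the mean without line 242 was -0.05. The counting intervals are narrow even in the shallowest library (Wilson 95% interval 4.66% to 4.76%), and cover counting error only. In bulk RNA, fewer cells of a kind and less RNA per cell cannot be told apart. Large subunit genes had 1.20 to 1.31 times as many counts as small subunit genes, and within a line this ratio moved by little: 1.25 and 1.23 in line 240, 1.20 and 1.20 in line 242, 1.31 and 1.31 in line 352.

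The treated library of line 242 stood apart from the other 5. It held 604984 gene counts, against 3160824 to 13766638 elsewhere. Mitochondrially encoded genes took 11.8% of its counts, against 1.84% to 3.10%. The 10 thymocyte and T-ALL markers summed to 2775 CPM there and to 5718 in the control library of the line, and 9 of the 10 lay lower. The 4 B cell markers summed to 74.4 CPM there and to 3.16 or less elsewhere, and the 2 epithelial markers to 18.2 and to 0.799 or less. The part of these differences in the lower ribosomal protein share of that library was not tested, and the log2 ratio of the share outside mitochondrially encoded genes was -0.47 there. Results that include line 242 are given below with and without it.

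Levels per length, as TPM (counts per base of the principal GENCODE transcript, scaled to a common library total), differed widely among the members. The median of the control means was 2148 TPM for the 46 large subunit genes that are not copies and 2962 TPM for the 31 of the small subunit. Rpl41, the smallest protein of the large subunit, stood highest at a mean of 5902 TPM, with 7387, 7041 and 3279 TPM in the control libraries of lines 240, 242 and 352. Rps12 led the small subunit at 5322 TPM, with 6374, 7023 and 2570 TPM. Both were lower in line 352 than in the other lines, whereas Rplp1 (4133, 4091 and 5194 TPM), a protein of the stalk that recruits elongation factors, and Rpl8 (3319, 3297 and 6077 TPM) were higher there. The next in order were Rpl32 at 5107 TPM and Rps15 at 4968 TPM, followed by Rps4x, Rps14, Rplp1, Rpl8, Rps18 and Rpl4, which lay between 4810 and 3875 TPM. The gaps between these neighbours are smaller than the differences between lines. The lowest member that is not a copy was Rpl24 at 33.2 TPM, a ribosomal protein at the interface of the subunits, and part of its exons is shared with another annotated gene, as described below.

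To ask whether inhibition of β-catenin and Tcf changed these genes, control and treated libraries were compared within lines by the quasi-likelihood test of edgeR, with p-values adjusted over all genes tested (Benjamini-Hochberg). With all 3 lines, 82 members passed the filter on low counts and none reached an adjusted p of 0.05, as was the case for all 10331 genes (0.0% called). At an unadjusted p under 0.05 there were 2 members of 82 (2.44%), against 5.52% of all genes. DESeq2 and limma voom also called 0 members, but they called 45 and 801 of the 10331 genes. The median log2 change was -0.20 for the 48 large subunit and -0.20 for the 34 small subunit genes, against 0.00 over all genes tested, so the subunits were alike in this measure.

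The size of this shift differed between the lines. In line 240 the median log2 change was -0.08 for large and -0.09 for small subunit genes, in line 352 it was -0.04 and -0.01, and in line 242 it was -0.54 and -0.52. Members lay below 0 in 60 of 82 cases in line 240, in 50 of 82 in line 352 and in 79 of 82 in line 242. All 3 lines gave a lower value for 43 members (52.4%, against 17.0% of all genes) and a higher value for 3, namely Rps27l, Rps27 and Rpl24. Without line 242, the medians were -0.08 and -0.07. An interaction term in edgeR, added after the data were seen, set the change in line 242 against that in the other lines and passed an adjusted p of 0.05 for 13 of 82 members (15.9%), against 22.4% of all genes. Rps2, at the entry of the mRNA channel, was the member with the smallest such p: it was at 1244, 1381 and 1366 normalised CPM (CPM after TMM scaling of the library totals) in control and 1345, 713 and 1374 in treated cells of lines 240, 242 and 352, so that the treated library of line 242 alone lay low.

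**Figure D1:**
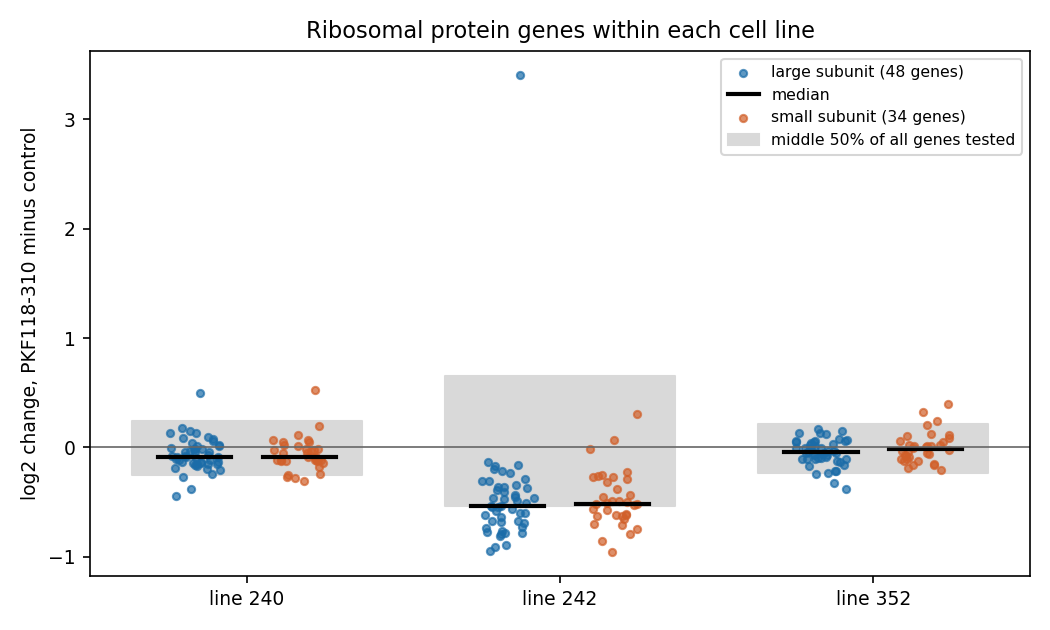
Log2 change from control to PKF118-310 (vertical axis) of the 48 large and 34 small subunit genes tested, 1 point per gene, within each cell line. Black bars mark the medians and grey boxes the middle 50% of all 10331 genes tested: the members sit near 0 in lines 240 and 352 and around -0.5 in line 242, where the grey box is also widest.

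In lines 240 and 352 alone, without the library that stood apart, 11760 genes were tested and 10.9% were called, 5.01% higher and 5.92% lower. Of the 84 members tested, 1 was higher and 0 were lower, a share of 1.19%. Members past an unadjusted p of 0.05 numbered 3 of 84 (3.57%), against 25.7% of all genes. Fewer members than genes in general thus passed the test in a comparison that did call many genes.

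The member that rose was Rps27l, which encodes a variant of the small subunit protein Rps27 and is a known transcriptional target of p53. Its normalised CPM was 89.1, 94.3 and 103 in the control libraries of lines 240, 242 and 352, and 129, 117 and 130 after PKF118-310. Every treated library lay above every control library, and the increase was largest in line 240. The log2 change was 0.41 ± 0.11 (SE, n = 2 lines, edgeR adjusted p = 0.030) in lines 240 and 352 and 0.39 ± 0.14 (SE, n = 3 lines, edgeR adjusted p = 0.84) in all lines. The call in lines 240 and 352 was lost with DESeq2 (adjusted p = 0.28), with a minimum of 10 counts in every library (adjusted p = 0.051, edgeR) and with the second sequencing lane alone (log2 change 0.26, edgeR adjusted p = 0.19).

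Rps27, its more abundant partner, has a value near 0 in the same comparison. It was at 664, 609 and 457 CPM in control and 675, 640 and 465 in treated cells, with a log2 change of 0.02 in lines 240 and 352 (edgeR adjusted p = 0.94). Per length, the control means were 3750 TPM for Rps27 and 429 TPM for Rps27l. The transcripts of the pair are 76.4% identical over 254 aligned bases, and the stretch of 30 coding bases that differs most, at positions 48 to 77 of the Rps27 transcript, is shown with its 13 differing bases in capitals, to show how far the pair diverges.
Rps27: AaAGgatctCCtTcaTccCtcTCCAgaAga
Rps27l: TaGAgatctGTtAcaCccTtcCTTGgaGga

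Rpl23a, a protein near the exit of the ribosomal tunnel, had the smallest 3-line p among the members after Rps27l. It was at 943, 832 and 519 CPM in the control libraries of lines 240, 242 and 352 and at 695, 490 and 415 after treatment. The value was lower in each line, but the ranges of the groups overlap because line 352 started lower. The log2 change was -0.51 ± 0.19 (SE, n = 3 lines, edgeR adjusted p = 0.84) with all lines and -0.38 in lines 240 and 352 (SE 0.12, edgeR adjusted p = 0.055). In lines 240 and 352 it passed the threshold under 9 of 13 alternative settings, among them DESeq2 (adjusted p = 0.032) and limma voom (adjusted p = 0.019).

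The other copies did not pass the treatment test. Rpl22l1, the partner of the RNA-binding protein Rpl22, was at 115, 130 and 102 CPM in control and 112, 76.1 and 78.7 in treated cells (log2 change -0.37, edgeR adjusted p = 0.84, 3 lines), beside 552, 543 and 474 against 508, 410 and 444 for Rpl22. Rpl7l1, an assembly-stage relative of Rpl7, was at 134, 179 and 151 in control and 189, 104 and 165 in treated cells. It was thus higher in lines 240 and 352 and lower in line 242. Rpl39l, known from male germ cells, had 0 counts in lines 240 and 242 and 61 and 114 counts in control and treated cells of line 352. A count of 0 allows up to 0.744 CPM in the control library of line 240.

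**Figure D2:**
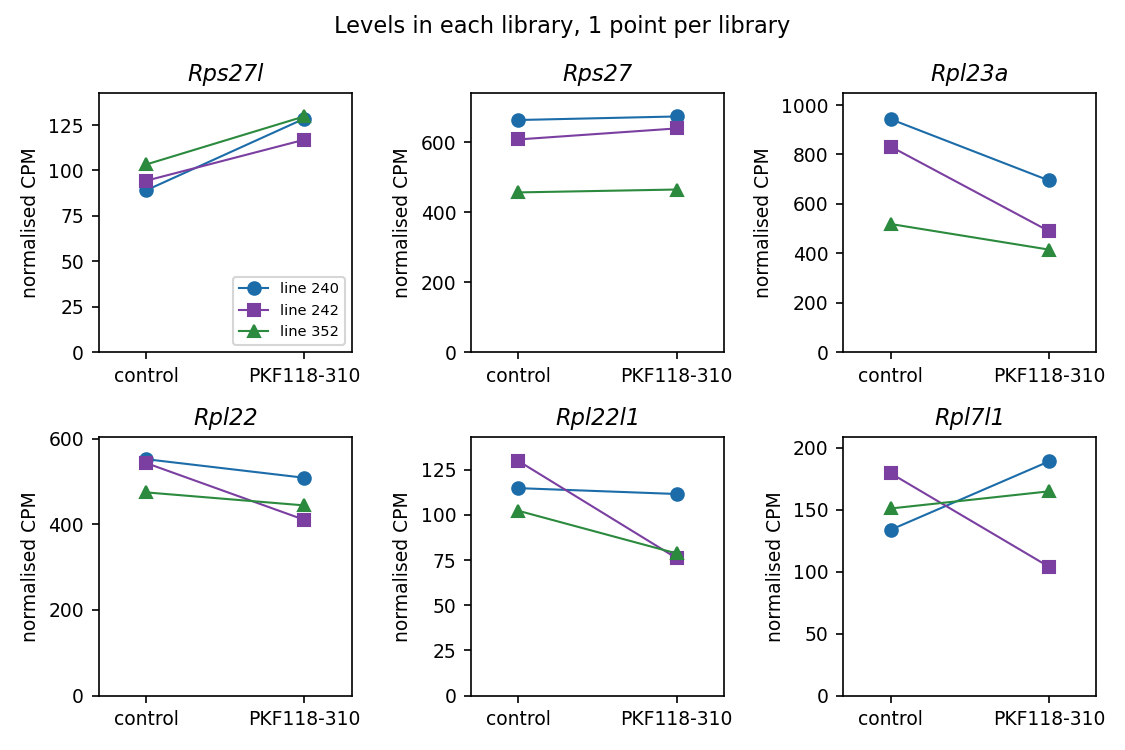
Normalised CPM (vertical axes, starting at 0) of 6 members in control and PKF118-310 libraries, 1 point per library, with lines joining the libraries of one cell line. Rps27l lies higher and Rpl23a lower after treatment in all 3 lines, whereas Rpl7l1 is higher in lines 240 and 352 and lower in line 242.

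Most other members had small negative values. Rpl3, which lies at the peptidyl transferase centre, was at 1996, 1776 and 1721 CPM in control and 1726, 1015 and 1526 in treated cells (log2 change -0.39, edgeR adjusted p = 0.84, 3 lines), lower in each line and lowest in the treated library of line 242. Rpl13a, Rps20 and Rpl36a followed at -0.37, -0.33 and -0.33. On the other side of 0 were Rps19 at 0.10, Rps27 at 0.04, Rps21 at 0.02 and Rpl36 at 0.01, the last 3 of which changed sign under other settings, and Rpl24 at 0.88 on few counts. Rps19, the protein most often mutated in Diamond-Blackfan anaemia, was at 729, 699 and 603 CPM in control and 836, 692 and 650 in treated cells, with overlapping groups.

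Groups of members with a shared role are described by their medians, since the 3-line comparison called none of the 10331 genes tested. The stalk proteins Rplp0, Rplp1, Rplp2 and Rpl12 had a median log2 change of -0.18. Rpl5 and Rpl11, which bind Mdm2 when not in ribosomes, had one of -0.31, with 1855, 1802 and 990 CPM of Rpl5 in control and 1679, 1219 and 851 in treated cells. The genes mutated in human T-ALL had a median of -0.29, the X-linked members Rpl10, Rpl36a, Rpl39 and Rps4x one of -0.24, and the 11 members mutated in Diamond-Blackfan anaemia, a failure of red cell formation, one of -0.25. In lines 240 and 352 the same medians were -0.03, -0.18, -0.15, -0.09 and -0.10, with 0 calls, where 10.9% of all genes were called. Groups of 2 to 11 members are too small for 0 calls to set them apart from that share. Rack1 and Fau, ribosomal proteins with other names, had 3-line log2 changes of -0.08 and -0.04.

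The members can be set beside the genes that build and regulate ribosomes. Among 40 nucleolar assembly factors tested in lines 240 and 352, 31 were higher and 0 lower after PKF118-310, with a median log2 change of 0.52, against 1 of 84 ribosomal protein genes higher and a median of -0.01 over all genes. Wdr75, part of the small subunit processome, was at 69.7 and 90.9 CPM in control and 122 and 123 in treated cells of lines 240 and 352 (log2 change 0.59 ± 0.12 SE, edgeR adjusted p = 0.0085). Nmd3, the export adaptor of the large subunit, went from 68.0 to 101 in line 240 and from 65.8 to 86.0 in line 352 (log2 change 0.46, edgeR adjusted p = 0.024). Of the 6 dedicated chaperones of ribosomal proteins, 2 were higher, Grwd1 (log2 change 0.86), which escorts Rpl3, and Bccip (0.56), which escorts Rpl23. In line 242 the assembly factors had a median of -1.09 and 39 of 40 lay below 0, so that they and the members were lower together there. Over all 3 lines the assembly list was called in neither direction, as was the case for all genes tested.

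The other lists of TOP mRNAs differed from each other. The 16 translation factors and related TOP mRNAs had a median log2 change of -0.01 in lines 240 and 352 and of -0.27 in the 3 lines. None was called in lines 240 and 352, against 10.9% of all genes. Eif4b was at 1003, 879 and 1431 CPM in control and 790, 447 and 1202 in treated cells (log2 change -0.52, edgeR adjusted p = 0.84, 3 lines). The TOP genes that host small nucleolar RNAs had a median of 0.35 in lines 240 and 352. Of these 6, Snhg12 (log2 change 1.07, edgeR adjusted p = 0.0034) and Snhg1 (0.49, adjusted p = 0.017) were higher. Among 9 regulators, Eif4ebp1, a repressor of cap-dependent translation under mTOR, was lower (log2 change -0.50, edgeR adjusted p = 0.032) and Myc was at 239 and 399 CPM in control and 241 and 425 in treated cells of lines 240 and 352.

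Of the 4 genes of the p53 and Mdm2 list, Cdkn1a, the p53-induced inhibitor of cyclin-dependent kinases, and Trp53 were higher in lines 240 and 352. Cdkn1a was at 54.1, 43.1 and 284 CPM in control and 157, 908 and 529 in treated cells of lines 240, 242 and 352 (log2 change 1.16 in lines 240 and 352, edgeR adjusted p = 0.00063). Within the lines the log2 changes of Rps27l were 0.53, 0.31 and 0.33, and the value in line 242 rests on 300 and 63 counts. Trp53 had within-line log2 changes of 0.54 and 0.40 in lines 240 and 352 and of -0.43 in line 242. Mdm2 had a log2 change of 0.29 in lines 240 and 352 (edgeR adjusted p = 0.11) and of 1.77 in line 242, from 163 to 557 CPM.

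**Figure D3:**
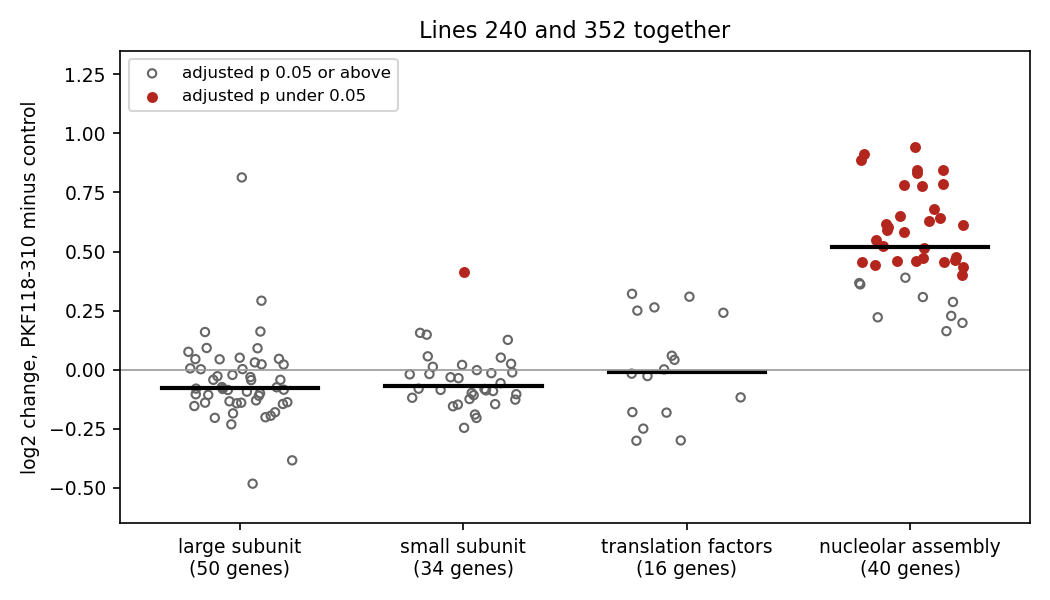
Log2 change after PKF118-310 in lines 240 and 352 together (vertical axis) of ribosomal protein genes, TOP translation factors and nucleolar assembly factors, 1 point per gene, with medians as black bars. Filled red points passed an edgeR adjusted p of 0.05: 31 of 40 assembly factors and 1 of 84 ribosomal protein genes, Rps27l.

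The lines themselves differed more than the treatment groups did. Over the 3 lines, 5 of 82 members (6.1%) passed the test for a cell line effect, near the 5.32% of all genes tested: Rps3a2, Rps3a3, Rpl13a, Rpl21 and Rpl36. Between lines 352 and 240, 47 of 84 members (56.0%) passed, against 44.7% of all genes, 37 of them lower and 9 higher in line 352 by the 3-line estimates, which Rpl39l lacks. The log2 difference of line 242 from 240 had a median of -0.20 over the members, with a range of -0.52 to 0.91. It was below 0 for 81 of 82 members, against 51.7% of all genes. Estimates that involve line 242 hold its treated library, where the members had a median within-line log2 change of -0.52. In the control libraries of lines 240 and 242 members went both ways, such as Rpl23 (1122 and 1229 CPM) and Rpl13 (753 and 658 CPM). The differences of line 352 from 240 and from 242 had medians of -0.28 and -0.06 and wider ranges, -7.03 to 3.79 and -6.98 to 2.87, whose ends are the pseudogene Rps3a2 and the low-count Rpl24. Each line is 1 tumour with its own sequencing depth, so the line, its depth and its libraries cannot be told apart.

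Among the members that are not pseudogenes, Rpl13a and Rpl21, proteins of the large subunit, had the smallest p for a line effect, and Rpl24 had larger differences on few counts (3.79 from line 240 and 2.87 from line 242). Rpl21 was at 702, 736 and 205 CPM in the control libraries of lines 240, 242 and 352 and at 659, 494 and 213 in the treated ones, a log2 difference of -1.70 ± 0.25 (SE) between lines 352 and 240 (edgeR adjusted p = 0.037). Rpl13a was at 41.9, 32.4 and 107 in control and 32.2, 16.7 and 99.7 in treated cells (log2 difference 2.02 ± 0.26 SE between lines 352 and 242, edgeR adjusted p = 0.026). Rpl36 was at 209, 198 and 435 in control and 230, 176 and 453 in treated cells. For each of these the values of lines 240 and 242 lay together and apart from line 352, in both groups. Rpl39, Rpl29, Rps12 and Rpl17 were lower in line 352 than in line 240 by log2 differences of -1.19, -1.17, -1.22 and -1.04, without passing the 3-line test of a line effect (edgeR adjusted p between 0.062 and 0.11).

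**Figure D4:**
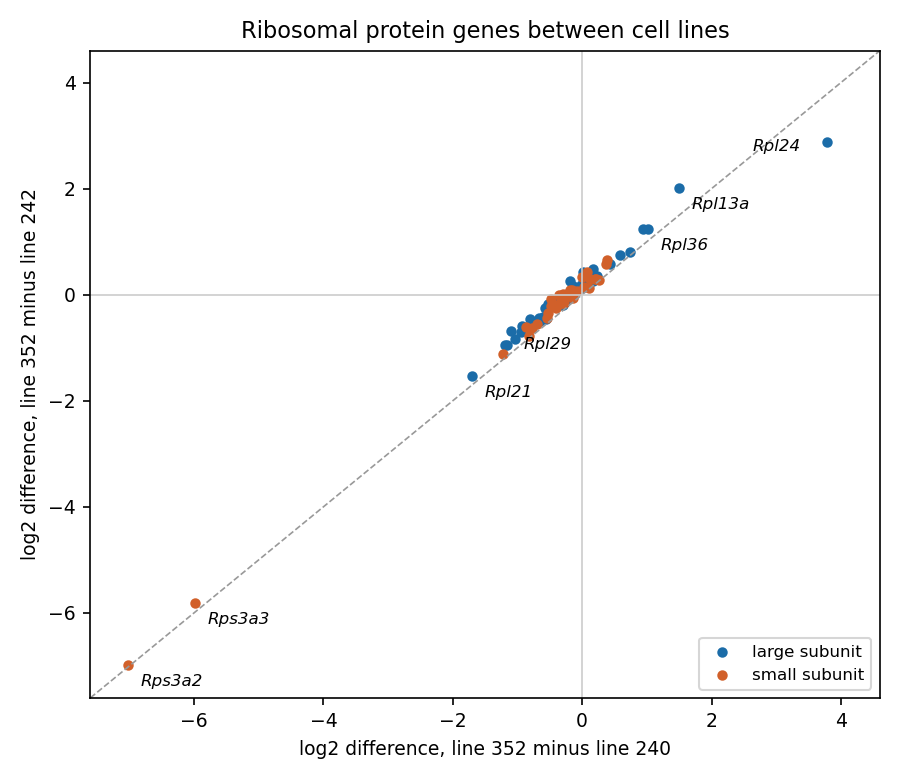
Log2 difference of each of 82 member genes between line 352 and line 240 (horizontal axis) and between line 352 and line 242 (vertical axis), with the diagonal dashed. The points follow the diagonal, which is partly built in because both axes use the same estimates of line 352. Rps3a2 and Rps3a3 lie far below 0 and Rpl24, Rpl13a and Rpl36 above 0 on both axes.

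For some members these differences went with how counts were divided between a member and its near-identical copies. Ribosomal protein mRNAs have left many processed pseudogenes, DNA copies of the spliced mRNA, across the mouse genome. Matching of GENCODE pseudogenes to the members (at least 85% identity over at least 50% of the pseudogene) gave 1225 copies. They took 1.80% to 1.91% of member and copy counts in lines 240 and 242, apart from 3.02% in the treated library of line 242, and 2.77% and 2.84% in line 352. The totals were small, but single genes differed strongly.

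Rpl29 was the clearest case. Its 77 copies took 2.33% of the family's counts in the control library of line 240, 2.95% in line 242 and 45.9% in line 352, and 46.4% in the treated library of line 352. One copy, Gm13841 (chr5:115801677-115802159), had 29, 42 and 2121 counts in the 3 control libraries. With the counts of the copies added to the member, the difference of line 352 from line 240 shrank from -1.17 to -0.31. The copy matches the Rpl29 transcript over 483 bases with 3 mismatches, and a coding stretch at positions 166 to 195 with the differing base in capitals shows how alike they are.
Rpl29: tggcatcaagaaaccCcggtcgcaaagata
Gm13841: tggcatcaagaaaccAcggtcgcaaagata

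Rpl21, Rpl17, Rpl23a and Rpl5 went the same way. Their copies took 1.94%, 4.62%, 1.07% and 6.44% of the counts in the control library of line 240 and 22.3%, 17.5%, 12.4% and 13.1% in that of line 352. Adding the copies moved the Rpl21 difference from -1.70 to -1.37, and its edgeR adjusted p for the line effect from 0.048 to 0.067. For Rpl17 the difference moved from -1.04 to -0.83, and for Rpl23a from -0.80 to -0.62. The change of Rpl23a with treatment was as large with its copies as without them (log2 change -0.39 in lines 240 and 352, edgeR adjusted p = 0.042).

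Rps3a1 and Rps26 went the other way. Copies of Rps3a1, a small subunit protein, took 21.5% of the counts in line 240, 22.0% in line 242 and 0.921% in line 352 (control libraries). The largest, Rps3a3 (chr13:108670603-108671397), had 1306, 981 and 53 counts in the control libraries of lines 240, 242 and 352, and Rps3a2 had 405, 345 and 9. Both carry member names but are annotated as pseudogenes, and their values hold whatever reads were assigned to them in place of Rps3a1, which itself was at 1566, 1488 and 1374 CPM. Adding the copies made the difference of Rps3a1 between lines 352 and 240 larger, from -0.15 to -0.48, and that of Rps26 smaller, from 0.39 to 0.22. Rps26-ps1 (chr8:107439131-107439579) had 373, 281 and 4 counts, beside Rps26 at 736, 689 and 893 CPM. The transcripts of Rps3a1 and Rps3a3 differ at 9 of 795 aligned bases and those of Rps26 and Rps26-ps1 at 4 of 429. The Rps3a1 pair is shown at positions 334 to 363 of the Rps3a1 transcript, in the coding part, with the differing base in capitals.
Rps3a1: tgaagtgagccttgcTgatctacagaatga
Rps3a3: tgaagtgagccttgcCgatctacagaatga

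A few members share exonic bases with another gene on the same strand, among them Rps10 (20.6% of its exonic bases) and Rpl19 (3.5%), which were abundant at control means of 1712 and 1782 TPM, and Rpl13a and Rpl24, which were low. For Rpl13a (chr7:45125558-45128761) this is Gm45713, a longer protein-coding gene, over 29.4% of its annotated exonic bases, and for Rpl24 (chr16:55966275-55971435) it is Gm28037, a processed transcript, over 47.0%. Both partners were at 0 counts in all 6 libraries. Rpl24 had 8, 3 and 367 counts in the control libraries of lines 240, 242 and 352, and 7, 7 and 435 in the treated ones, and its pseudogene copies took 89.5% of the family's counts in the control library of line 240 and 46.6% in that of line 352. The rise of Rpl24 within line 242 (log2 3.41) rests on 3 and 7 counts. The part of the shared exons in these values was not tested.

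**Figure D5:**
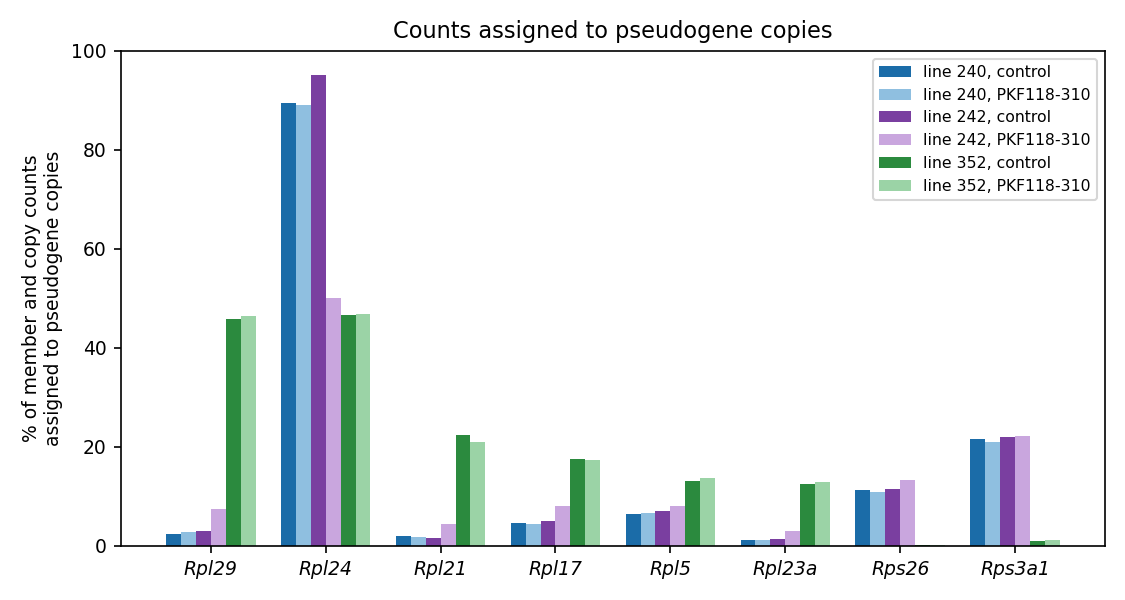
Share of counts assigned to pseudogene copies, in % of the counts of a member and its copies together (vertical axis), for 8 members in each of the 6 libraries. The control libraries of lines 240 and 242 resemble each other, the treated library of line 242 departs from them for several members, such as Rpl24 and Rpl29 (7.46%), line 352 has larger shares for Rpl29, Rpl21, Rpl17, Rpl5 and Rpl23a and smaller ones for Rps26 and Rps3a1, and control and treated libraries of lines 240 and 352 are alike.

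The treatment left these shares in place in lines 240 and 352. In line 240 the copies took 1.85% of member and copy counts in control and 1.80% in treated cells, and in line 352 they took 2.77% and 2.84%. Base composition went only weakly with the line differences. Across 82 genes, the pseudogenes Rps3a2 and Rps3a3 among them, correlation coefficients of the difference between lines 352 and 240 with transcript GC content and length were computed. The values were 0.24 (Pearson) and 0.33 (Spearman) for GC content, and -0.02 and -0.07 for length. With the 3-line treatment change the correlations were 0.06 and 0.13 for GC content. These are descriptions across genes that share libraries, and genes are not independent replicates.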

How the data were processed

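Poly(A) mRNA of 6 libraries (control and PKF118-310 in lines 240, 242 and 352) was sequenced in 2 lanes each. The deposited files hold raw read counts per gene, made by the authors with HISAT2, HTSeq and edgeR on mm10 per the labels, whereas the study's methods name TopHat, and no source used here gives versions, the overlap mode or the handling of multiply mapped reads. The 2 files of a library carry the same library number and different lane numbers in their titles, so they were summed and counted as 1 sample. A supplementary legend of the study instead describes 2 separate controls and 2 separately treated cultures per line. The counts of the 2 files differed by no more than sampling noise in lines 240 and 242 (chi-square per degree of freedom 0.982 to 1.02), and by more in line 352 (2.01 and 2.05). Totals were 604984 to 13766638 counts per library.

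Genes passing filterByExpr were tested with edgeR 4.0.16 (TMM, quasi-likelihood, line as a term, Benjamini-Hochberg), first with 3 lines and then with lines 240 and 352. Control and treated libraries come from the same line and deviated together (correlation 0.67, 0.30 and 0.79), so they were paired. The titles and that legend differ on whether the 2 files of a library are separate cultures. The files were therefore not used as replicates, and treatment p-values rest on the spread between 3 lines. In the fit of lines 240 and 352 they rest on the spread between these lines alone. For the line tests, the control and treated library of a line stood in for replicates. DESeq2 1.42.0 and limma 3.58.1 were alternatives, and scripts were tested on simulated data. Pseudogenes were matched by blastn on GENCODE vM21 transcripts. Within-line changes used a prior count of 2.

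Members and gene lists were chosen with earlier results of these data known. Genes named were, by rule, the members highest per length, with the smallest treatment or line p, the copies with at least 10 counts, and up to 3 genes of each list with the smallest 3-line p. Others, such as Rps2, Rpl22, Rps3a1, Rpl23a's copies and Trp53, were added as partners or after their values were seen.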

Additional observations from a re-analysis of the deposited data

Results flagged for a closer look

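The change of the members in line 242 was compared with that in lines 240 and 352 by an interaction term in edgeR, chosen after seeing the data. It passed an adjusted p of 0.05 for 13 of 82 members (15.9%), against 22.4% of the 10331 genes tested. Of the 13, 12 changed downwards in line 242 relative to the other lines, led by Rps2 (log2 difference -1.01 ± 0.23 SE, edgeR adjusted p = 0.0094) and Rpl7l1 (-1.08 ± 0.26 SE, edgeR adjusted p = 0.012). Rpl24 went upwards (3.59 ± 0.92 SE, adjusted p = 0.016) on 3 and 7 counts. The comparison rests on the 1 treated library of line 242 with 604984 counts, and the part of its depth, its mitochondrial share and its B cell markers was not tested.

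Annotated pseudogene copies, of which a few such as Rps3a2 and Rps3a3 also carry member names, took 3.019% of member and copy counts in the treated library of line 242, above the 1.91% of its control library. In lines 240 and 352 the treated values were 1.80% and 2.84%.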

How the results depend on the processing

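The medians of the large and small subunit genes and the share of counts kept their sign and moved by less than the spread between lines under every alternative run. Without the block that pairs the libraries of a line, 0 members were called over 3 lines, and 0 in lines 240 and 352. Leaving out line 242 gave 1 called member over 3 lines, and leaving out line 240 or 352 gave 0. In lines 240 and 352 the count was 2, Rps27l and Rpl23a, with DESeq2 size factors, TMM from genes outside the members, the likelihood ratio test, limma voom, no filter, the first lane, GC-adjusted offsets or added copies, and 0 with at least 10 counts in every library, the second lane or no replicate block. For the line effect, 18 members were called by DESeq2, 16 by the likelihood ratio test and 31 by limma voom, beside 1665, 2883 and 4376 of all 10331 genes. The count was 9 without a filter (3009 of 28529 genes), 2 with at least 10 counts in every library (220 of 7359) and 3 with added copies (528 of 10264). When a line was left out it lay between 0 (without line 352, 209 of 10207 genes) and 47 (without line 242, 5257 of 11760). Treatment values near 0 turned sign for 3 genes. Without a filter, Rps27, Rps21 and Rpl36 were at -0.0505, -0.0675 and -0.073. Rps21 was at -0.0639 with the second lane and between -0.1184 and 0.1556 when a line was left out, and Rpl36 at -0.0475 with the first lane and between -0.0903 and 0.0917 when a line was left out. Without the filter the median of all genes was 0.51, so member medians of -0.29 and -0.30 lie further below it. The causes were not tested. GC-adjusted offsets, added copies and the unblocked fit of lines 240 and 352 were chosen after seeing the data. Depth limits line 242, where 3 counts equal 4.96 CPM in the treated library.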
